A study of Mus musculus with 4 samples.

Results

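The molecular chaperones described here were 82 of the 23746 genes in the expression tables of 4 mouse mammary tumors. They were picked out by symbol: Tcp1, every gene whose symbol starts with Hsp90, those that start with Hspa, Hspb, Hspd, Hspe or Hsph followed by a digit or the letter a, and those that start with Dnaja, Dnajb, Dnajc or Cct followed by a digit. By family these were 13 Hsp70 and Hsp110 genes, 3 Hsp90 genes, the 2 genes of the Hsp60/Hsp10 pair, 10 genes of the cytosolic chaperonin CCT, 9 small heat shock genes, and 4 Dnaja, 13 Dnajb and 28 Dnajc genes. Hspa5, the Hsp70 of the endoplasmic reticulum, was left out of the families and is counted only among the co-chaperone genes below. The symbol rule also took in Hspb11, which encodes a component of the intraflagellar transport machinery of cilia, and Hspbap1, which encodes a protein named for its association with a small heat shock protein.

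Molecular chaperones bind proteins that are not folded and keep them from aggregating until they fold, cross a membrane or are degraded. Hsp70 works in a cycle of ATP hydrolysis that Dnaj proteins start by delivering a client and stimulating its ATPase, while Hsp90 takes over clients such as kinases and steroid receptors at a late stage of folding. Hsp60 with its Hsp10 lid in mitochondria, and the ring-shaped CCT complex in the cytosol, enclose a client in a chamber, and small heat shock proteins hold unfolded proteins without ATP. Many of these genes are transcribed by heat shock factors bound to heat shock elements, repeats of a short GAA unit in alternating orientation.

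PolyA RNA was sequenced from primary mammary tumors of female mice, 2 of genotype WapCre;Rank;Brca1;p53 (triple-mutant, tumors 26043 and 26044) and 2 of genotype WapCre;Brca1;p53 (double-mutant, tumors 26048 and 26050). Every tumor came from a mouse with the WapCreC transgene, which deletes floxed Brca1 and p53 alleles in luminal and basal mammary epithelium, and the triple-mutant mice carried floxed Rank alleles as well. The study asked what loss of the receptor RANK changes in tumors that lack Brca1 and p53. Cells of the tumor that do not express Cre keep all 3 genes, there was no tumor or gland without the Brca1 and p53 deletions among the samples, and neither the age of the mice nor their strain is given in the labels. The study describes the triple-mutant and double-mutant mice as littermates, but the labels tie no tumor to a litter, so the part of litter was not tested. The labels also do not say that the tumors came from separate mice. The p-values set the genotype difference against the spread of tumors within a genotype, moderated over all genes tested. They cannot be taken to reflect a spread between mice.

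Several facts about the tumors bear on what follows. Tnfrsf11a, the gene that encodes RANK, was at 2.07 and 0.962 FPKM in triple-mutant tumors 26043 and 26044 and at 10.6 and 11.9 FPKM in double-mutant tumors 26048 and 26050, so the labels and the transcript go the same way. FPKM, the number of fragments per kilobase of transcript scaled to the mapped reads of the library, is a level per length and can be compared between genes. Brca1 was at 3.26 and 3.28 FPKM in the triple-mutant and 3.84 and 5.69 FPKM in the double-mutant tumors, and Trp53 was at 15.7 and 87.8 against 150 and 103 FPKM, which does not check those deletions, since a floxed gene can leave most of its transcript. Epithelial keratins were present in every tumor: Krt8 was at 579, 98.3, 708 and 701 FPKM in tumors 26043, 26044, 26048 and 26050. The 9 luminal markers summed to 2944, 437, 2333 and 2092 FPKM in the same order, so tumor 26044 stood apart by sum. They did not move together: 4 (Krt8, Krt18, Epcam and Elf5) were higher in both double-mutant tumors. Another 3 (Krt19, Esr1 and Pgr) were higher in both triple-mutant tumors, with Krt19 at 1154 and 194 against 139 and 56.7 FPKM. The 8 basal or myoepithelial markers summed to 1751 and 1315 FPKM in the triple-mutant tumors against 70.4 and 47.6 FPKM, and 7 of the 7 tested were higher in both triple-mutant tumors. Adipocyte markers (8 genes) summed to 2101 FPKM in tumor 26048 and to 20.1 to 268 FPKM in the others. Immune markers summed to 53.4, 46.1, 88.2 and 87.8 FPKM, fibroblast markers to 205, 123, 899 and 433 FPKM and endothelial markers to 35.9, 116, 53.2 and 28.2 FPKM in tumors 26043, 26044, 26048 and 26050, and the part of these cells in the chaperone values was not tested. In a bulk tumor, fewer cells of a type and less RNA per cell cannot be told apart.

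Before the values, short stretches of promoter sequence are shown for some members that hold a heat shock element core, because members that share such a stretch can be read side by side. RefSeq promoter windows of assembly GRCm38.p6, which run from 250 bases before to 50 bases after the start of a gene, were on hand for 67 of the 82 members. They were searched for 2 heat shock element cores, GAANNTTC and TTCNNGAA, each of which reads the same on both strands. A gene with several windows was counted once, by a match in any of them. The first core stood in 16 of the 67 members (23.9%) against 9.04% of all 27025 genes with a window. The second stood in 8 (11.9%) against 9.60%. Either core, which may overlap each other, stood in 20 members (29.9%) against 17.0% of all genes with a window. A longer run on either strand, GAANNTTC followed directly by NNGAA, which contains both cores and was added after the data were seen, stood in the windows of Dnajb6, Hspd1, Hspe1 and Hsph1, 5.97% of members against 0.662% of all. Hspd1 and Hspe1 lie 215 bases apart on chromosome 1 on opposite strands, and the same stretch, chr1:55088053-55088082, was found in both windows. It was counted for both genes in each share of members above. The stretches are written 5′ to 3′ on the strand of the gene, with the core or run of cores in capitals.
Hspd1 (chr1:55088053-55088082, minus strand): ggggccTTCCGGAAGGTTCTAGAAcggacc
Hspe1 (chr1:55088053-55088082, plus strand): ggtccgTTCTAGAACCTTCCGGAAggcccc
Hspb1 (chr5:135887801-135887830, plus strand): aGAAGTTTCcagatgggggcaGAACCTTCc
Hspb6 (chr7:30553170-30553199, plus strand): aagtaattattGAAGTTTCtaaataaggaa
Hspa1a (chr17:34972242-34972271, minus strand): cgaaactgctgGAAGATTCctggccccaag
Hspa1b (chr17:34959324-34959353, minus strand): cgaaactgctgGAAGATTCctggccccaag
Cct2 (chr10:117063399-117063428, minus strand): ccccaagtgaaGAAGTTTCtagcaggacct
The Hspd1 and Hspe1 stretch holds 3 overlapping cores, the first of them 144 bases before the start of Hspd1 and 89 bases before that of Hspe1. The Hspb1 stretch holds 2 cores, starting 117 bases before the gene, and those of Hspa1a and Hspa1b are identical and lie 104 bases before each gene. A match is a description of the sequence only. No rule was set for which stretches to show. Of the genes shown, Hspa1b overlapped between the genotypes and the others did not. Of those not shown, listed for their core alone, Cct5, Cct6a, Dnaja1, Dnajb6, Dnajc10, Dnajc27, Hspb8 and Hsph1 overlapped. Dnaja4 and Dnajb4 did not overlap, and Cct8l1, Dnajc5g and Hspb3 were not tested. The windows of Hspa2 and Tcp1, whose genotypes did not overlap, held neither core. A link between a core and the genotypes was not tested. The CCAAT box stood in 29 of the 67 members (43.3%) against 41.1% of all genes with a window. The core of the endoplasmic reticulum stress element (CCAAT, a gap of 9 bases, then CCACG, on either strand) stood in 2 (Dnajc3 and Hsp90b1, 2.99% against 0.137%). Cct4, Dnajc2, Dnajc5, Dnajc5b, Dnajc11, Dnajc12, Dnajc18, Dnajc22, Dnajc30, Hsp90aa1, Hsp90ab1, Hspa8, Hspa9, Hspa13 and Hspb2 had no entry.

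Of the 82 members, 70 reached 1 FPKM in at least 2 tumors and entered the test. The other 12 were Cct6b, Cct8l1, Dnajb7, Dnajb8, Dnajb13, Dnajc5b, Dnajc5g, Dnajc6, Hspa12a, Hspb3, Hspb7 and Hspb9, with 1.27 FPKM as the highest value in any tumor, and Dnajb8 and Dnajc5g were listed at 0 in all 4. In limma's moderated test on log2(FPKM + 1), triple-mutant minus double-mutant, no member had a Benjamini-Hochberg adjusted p under 0.05 (lowest 0.347), and neither did any of the 12752 genes tested (0.0% called, lowest adjusted p 0.0644). At an unadjusted p under 0.05, 5 of the 70 members (7.14%) stood against 9.82% of all genes. Of these, Hspb2, Hspa2 and Dnajc30 were higher in the triple-mutant tumors (4.29% of members, 5.91% of all genes), and Hspd1 and Tcp1 in the double-mutant tumors (2.86% and 3.91%). With 2 tumors against 2, an exact permutation test cannot go below a p of 0.33, so the differences below are given as values, and none of them passed the test.

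For 13 of the 70 members both triple-mutant tumors lay above both double-mutant tumors, 18.6% against 21.3% of all genes. For 18 members both double-mutant tumors lay above, 25.7% against 22.9%, and for 39 the genotypes overlapped. The log2 fold change was larger than the difference within either pair of tumors for 20 members (28.6%) against 29.6% of all genes. Counted over all members, then, the separation of the genotypes was near that of any gene. Among members the median absolute log2 fold change was 0.38, and the median difference between the pair of tumors of a genotype was 0.41 in the triple-mutant and 0.40 in the double-mutant pair. The median signed log2 fold change was -0.17 over members and -0.022 over all genes, and 43 of the 70 members (61.4%) had a negative value against 51.6% of all genes. The members' median was -0.025 without tumor 26044 (0.060 over all genes), -0.033 without tumor 26050 (-0.041), -0.24 without tumor 26048 (0.0061) and -0.29 without tumor 26043 (-0.12), and -0.039 with the midpoints of the deposited confidence intervals (0.026).

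The members were not spread evenly over the tumors. Double-mutant tumor 26050 had the highest value for 30 of the 70 members (42.9%), against 24.7% of all genes. Tumor 26043 was highest for 21 (27.9% of all genes), tumor 26048 for 10 (23.2%) and tumor 26044 for 9 (24.2%). Triple-mutant tumor 26044 had the lowest value for 33 members (47.1%), against 39.0% of all genes, followed by tumor 26043 for 14 (15.2%), tumor 26048 for 12 (17.6%) and tumor 26050 for 11 (28.2%). Together the 82 members made up 0.9998% of all FPKM in tumor 26043, 0.676% in 26044, 0.930% in 26048 and 1.20% in 26050. Of the 16 members with a mean of at least 100 FPKM, a split made after the values were seen, 15 had a negative log2 fold change (93.8%; 50.3% of the 1016 tested genes at that level), and 14 were highest in tumor 26050 (87.5% against 29.9%). Both double-mutant tumors lay above for 8 of the 16, against 24.0% of genes at that level, and their median log2 fold change was -0.44 against -0.0022. The exception to the negative values was Hspb1. The 8 tested genes of the CCT complex were among the 16, so these shares do not count independent genes. Without tumor 26050, Hsp90aa1, Hsp90b1, Cct5, Cct6a and Cct7 turned positive, and the other negative members of the 16 stayed negative. Among the 54 tested members under 100 FPKM, 28 had a negative value, with a median of -0.052, and 16 were highest in tumor 26050.

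**Figure D1:**
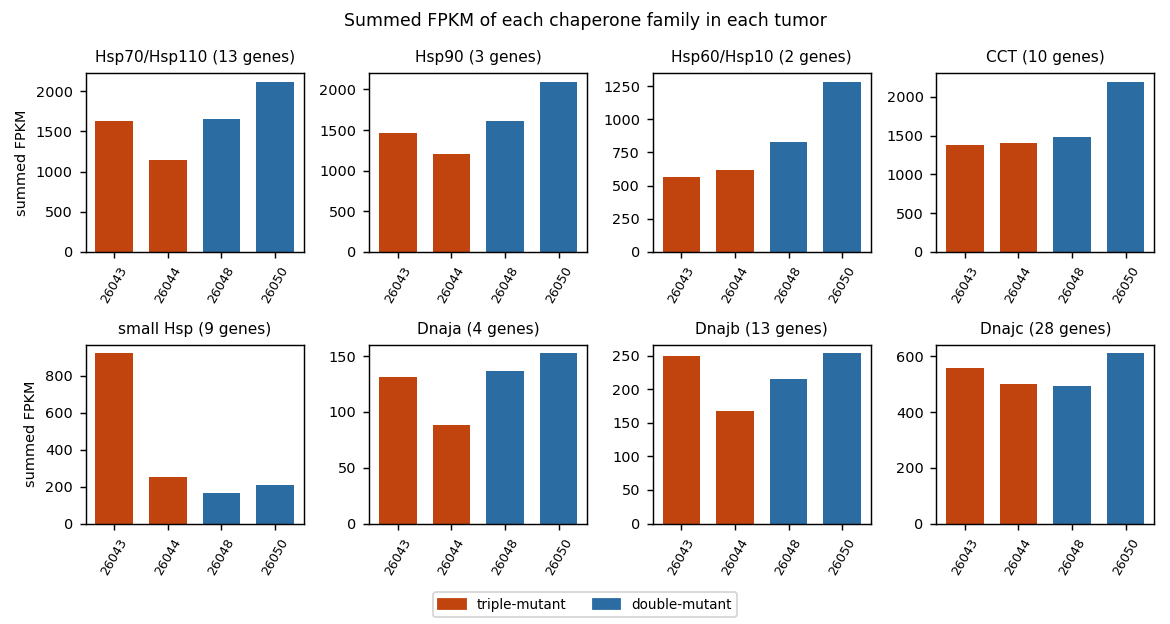
Summed FPKM (y axis, starting at 0) of all genes of each chaperone family in each of the 4 tumors (x axis; orange, triple-mutant; blue, double-mutant). Tumor 26050 had the tallest bar in every family except the small heat shock genes, where tumor 26043 stood at 921 FPKM against 167 to 251 FPKM in the others.

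Among the small heat shock genes, Hspb1, Hspb2 and Hspb6 were higher in both triple-mutant tumors. Hspb1 (chr5:135887919-135889563 in mm10) encodes Hsp25, a holdase that also acts on actin filaments. It was at 764 and 168 FPKM in triple-mutant tumors 26043 and 26044 and at 101 and 100 FPKM in double-mutant tumors 26048 and 26050. Both triple-mutant tumors were higher, but they differed from each other far more than the double-mutant pair did. The means were 466 ± 421 and 101 ± 0.977 FPKM (SD, n = 2 each), a 4.62-fold ratio, with a log2 fold change of 1.82 (SE 0.76; limma, Benjamini-Hochberg adjusted p = 0.532). Without tumor 26043 the log2 fold change was 0.73, and without tumor 26044 it was 2.91. Hspb1 was the most abundant small heat shock gene in every tumor, and 50.1% of its 50-base stretches, the length of a read, also occur in another annotated gene, mostly the pseudogene Hsp25-ps1, so reads could have been split between them.

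Hspb2 gave the tightest values of the family. This relative of αB-crystallin (chr9:50751072-50752354), known best from muscle, was at 9.44 and 9.997 FPKM in tumors 26043 and 26044 and at 3.04 and 3.03 FPKM in tumors 26048 and 26050. The genotypes did not overlap and the tumors within each were close to each other. The log2 fold change was 1.41 (SE 0.30; limma, Benjamini-Hochberg adjusted p = 0.347), the lowest adjusted p among the members, and it lay between 1.37 and 1.45 when any tumor was left out. Its neighbour Cryab, the gene of αB-crystallin, is not a member by name and lies 403 bases away on the opposite strand of chromosome 9. Cryab was at 68.3 and 74.9 against 25.9 and 16.8 FPKM, again with both triple-mutant tumors higher, and had a log2 fold change of 1.73 (SE 0.32; limma, adjusted p = 0.296). Of the 50-base stretches of Hspb2, 24.4% also occur in Cryab transcripts, so the values of this pair are not fully separate.

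Hspb6 (Hsp20), a small heat shock protein of smooth and striated muscle, was at 9.06 and 29.3 FPKM in tumors 26043 and 26044 and at 4.75 and 6.59 FPKM in tumors 26048 and 26050. Both triple-mutant tumors were higher, with tumor 26044 well above tumor 26043, the reverse of their order for Hspb1. The log2 fold change was 1.40 (SE 0.61; limma, adjusted p = 0.537), and 0.61 without tumor 26044. Hspb8, which works with the co-chaperone Bag3 in selective autophagy, was at 126 and 26.3 against 37.5 and 71.0 FPKM, so its genotypes overlapped. Its log2 fold change of 0.16 turned to -0.95 without tumor 26043 and to -0.29 without tumor 26048. Bag3 itself was at 45.6 and 50.1 against 26.3 and 33.9 FPKM, with both triple-mutant tumors higher (log2 fold change 0.66, SE 0.28; limma, adjusted p = 0.535).

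The remaining genes of this family were low or went the other way. Hspb11 was at 10.9 and 14.9 FPKM in the triple-mutant against 15.5 and 25.4 FPKM in the double-mutant tumors (log2 fold change -0.60), and Hspbap1 at 2.47 and 1.42 against 4.30 and 4.29 FPKM (-0.87), so for both the double-mutant pair was higher. Hspb3, Hspb7 and Hspb9 did not exceed 0.788 FPKM in a tumor. The median over the 6 tested genes was 0.78, and 1.41 over the 4 that remained without Hspb11 and Hspbap1, a choice made after the values were seen. By sum, the 9 genes gave 921, 251, 167 and 211 FPKM in tumors 26043, 26044, 26048 and 26050, and tumor 26043 decided the ratio: the log2 ratio of the genotype means was 1.63, and 0.40 without it.

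Hspb1, Hspb2, Hspb6 and Cryab are grouped here by their order, with both triple-mutant values above both double-mutant values. Of all genes, 21.3% had that order, while Hspb8, Hspb11 and Hspbap1 of the small heat shock family did not. Because the grouping was made by this order, no link is tested by finding it in the basal or myoepithelial markers. Their sum was higher in both triple-mutant tumors, as given above, with Krt5 at 596 and 114 against 1.15 and 2.06 FPKM, Krt14 at 611 and 42.5 against 2.08 and 6.99 FPKM, and Acta2, a smooth muscle actin, at 64.8 and 898 against 59.7 and 31.8 FPKM. None of the 3 was at 0 in a tumor. The part of basal or myoepithelial cells in the small heat shock values was not tested. The 12 skeletal muscle markers summed to 5.23 and 4.33 FPKM in the triple-mutant and 8.36 and 48.5 FPKM in the double-mutant tumors, with tumor 26050 holding most of that difference. Of the 3 that were tested, Mylpf (2.22 and 1.42 against 1.41 and 4.49 FPKM) and Tnni2 (1.51 and 0.394 against 0.738 and 3.56 FPKM) overlapped between the genotypes. The third, Myl1, was at 0.591 and 0.202 against 4.96 and 4.07 FPKM, with both double-mutant tumors higher. The part of muscle in the small heat shock values was not tested.

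**Figure D2:**
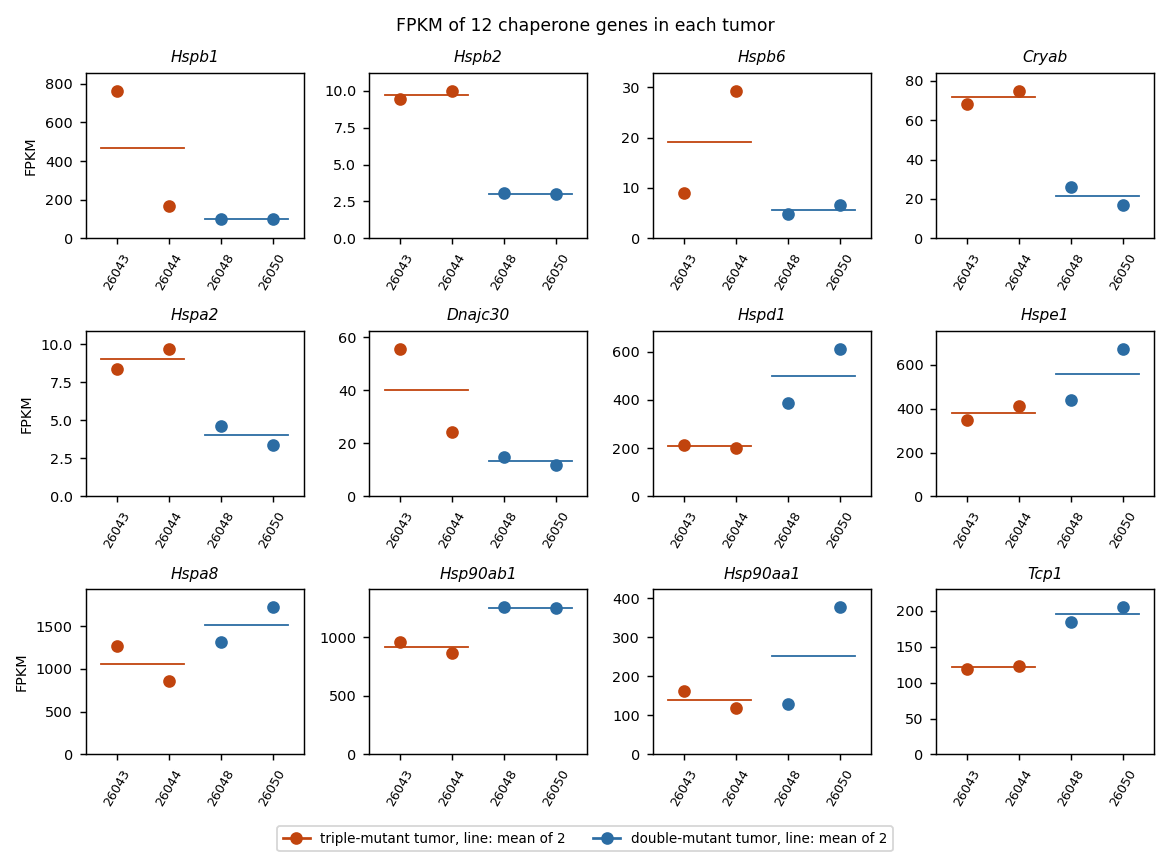
FPKM (y axis, starting at 0, a scale per gene) of 11 members and of Cryab in each tumor (x axis); each point is a tumor and each line the mean of the 2 tumors of a genotype. Hspb1, Hspb2, Hspb6, Cryab, Hspa2 and Dnajc30 were higher in both triple-mutant tumors, and Hspd1, Hspe1, Hspa8, Hsp90ab1 and Tcp1 in both double-mutant tumors, while Hsp90aa1 was high in tumor 26050 alone.

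Both genes of the mitochondrial chaperonin were higher in both double-mutant tumors. Hspd1 (chr1:55077834-55087932), which encodes Hsp60, was at 215 and 201 FPKM in triple-mutant tumors 26043 and 26044 and at 389 and 611 FPKM in double-mutant tumors 26048 and 26050. The genotypes were well apart, with means of 208 ± 9.82 and 500.0 ± 157 FPKM (SD, n = 2 each). The log2 fold change was -1.23 (SE 0.34; limma, adjusted p = 0.452), the largest negative value among the members, and between -1.55 and -0.90 when any tumor was left out. Hspe1, which encodes the Hsp10 lid, was at 349 and 414 against 441 and 672 FPKM. Here the lower double-mutant tumor lay just above the higher triple-mutant tumor (log2 fold change -0.52, SE 0.34; limma, adjusted p = 0.646), and without tumor 26050 the log2 fold change was -0.21. Hspd1 was at 61.5% and 48.5% of the level of Hspe1 in the triple-mutant tumors and at 88.1% and 91.0% in the double-mutant tumors, so the 2 genes, which share the promoter stretch shown above, did not differ by the same factor. Of the 50-base stretches, 42.1% of those of Hspd1 and 22.8% of those of Hspe1 occur in another annotated gene, for Hspd1 mostly the pseudogene Hspd1-ps3.

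Hspa9 (mortalin), the mitochondrial Hsp70, which draws proteins through the import channel, was at 139 and 133 against 175 and 201 FPKM (log2 fold change -0.46, SE 0.26; limma, adjusted p = 0.602), with both double-mutant tumors higher. Dnaja3, its Dnaj partner in the matrix, was also higher in both, but by little, at 30.3 and 28.7 against 33.2 and 32.3 FPKM. Dnajc15, an inner membrane Dnaj protein linked to import, was at 42.0 and 32.1 against 55.0 and 66.7 FPKM (log2 fold change -0.71, SE 0.29; limma, adjusted p = 0.532). Dnajc19, the Dnaj subunit of the import motor, was at 48.2 and 54.9 against 49.5 and 60.4 FPKM, and its genotypes overlapped. Against these, Dnajc30, a mitochondrial protein that associates with ATP synthase, was at 55.5 and 24.4 FPKM in the triple-mutant and 14.9 and 12.0 FPKM in the double-mutant tumors. Both triple-mutant tumors were higher, with tumor 26043 highest, as it was for 27.9% of all genes. Hspb1, also highest in that tumor, lies 823 kb away on chromosome 5, and a link between the 2 genes was not tested. The log2 fold change of Dnajc30 was 1.40 (SE 0.47; limma, adjusted p = 0.487), and 0.82 without tumor 26043. Of its 50-base stretches, 24.0% occur in its neighbour Bud23. Of the 10 mitochondrial chaperones listed, all members, 5 were higher in both double-mutant tumors and 2 in both triple-mutant tumors, against 22.9% and 21.3% of all genes. Their median log2 fold change was -0.36 against -0.022 over all genes. By sum they came to 923, 934, 1203 and 1710 FPKM in tumors 26043, 26044, 26048 and 26050.

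The cytosolic chaperonin CCT is built from 8 kinds of subunit and folds actin, tubulin and many other proteins. All 8 of its tested genes had a negative log2 fold change (51.6% of all genes), with a median of -0.36. All 8 were highest in tumor 26050 (24.7% of all genes). As parts of 1 complex, the 8 do not count as independent genes. Tcp1 (chr17:12916465-12925067), which encodes the alpha subunit, was at 119 and 124 FPKM in tumors 26043 and 26044 and at 185 and 205 FPKM in tumors 26048 and 26050. It was the subunit whose genotypes lay furthest apart (log2 fold change -0.68, SE 0.25; limma, adjusted p = 0.508), and both tumors of each genotype were alike. Cct8 was at 146 and 123 against 157 and 206 FPKM (log2 fold change -0.43, SE 0.29). Cct2 was at 151 and 209 against 210 and 311 FPKM (-0.52, SE 0.35), so that tumors 26044 and 26048 were nearly equal.

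For the other 5 subunits the genotypes overlapped: tumor 26048 lay between the triple-mutant tumors for Cct3, Cct4 and Cct7 and below both for Cct5 and Cct6a. Cct5, the most abundant of them, was at 304 and 269 FPKM in the triple-mutant and at 268 and 478 FPKM in the double-mutant tumors. Cct6a was at 183 and 151 against 142 and 276 FPKM, and Cct7 at 201 and 170 against 183 and 235 FPKM. Cct3 was at 158 and 204 against 185 and 251 FPKM, and Cct4 at 122 and 161 against 147 and 232 FPKM. Their log2 fold changes ran from -0.40 for Cct4 to -0.17 for Cct7. Without tumor 26050 those of Cct5, Cct6a and Cct7 turned to 0.093, 0.22 and 0.013, and the median of the family to -0.054. Cct3 (-0.037), Cct4 (-0.070), Cct8 (-0.23), Cct2 (-0.24) and Tcp1 (-0.60) stayed negative without it, and of these 5 all but Tcp1 moved by over 1.5 times. By sum the 10 genes came to 1384, 1409, 1476 and 2194 FPKM in tumors 26043, 26044, 26048 and 26050. Within a tumor, the subunit with the highest level was 1.88 to 2.56 times the one with the lowest. Cct6b and Cct8l1, relatives known from testis, did not exceed 0.179 FPKM.

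**Figure D3:**
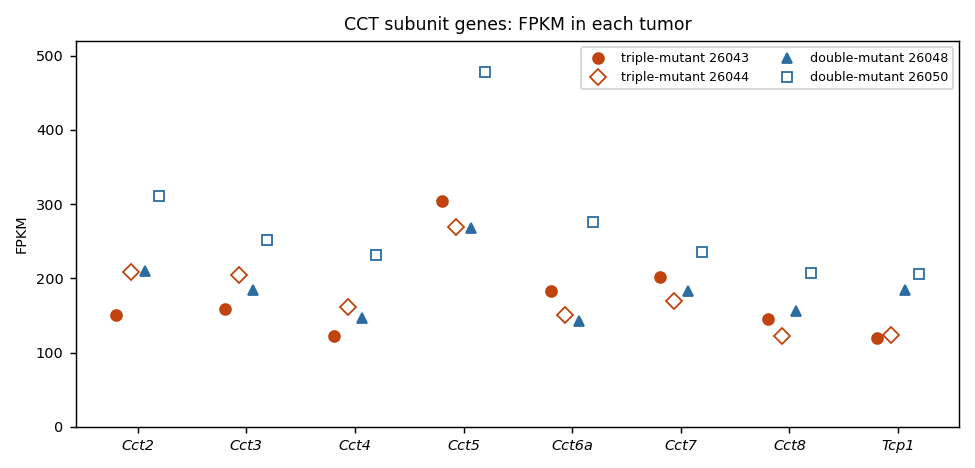
FPKM (y axis, starting at 0) of the 8 tested CCT subunit genes (x axis), with a symbol for each tumor. Tumor 26050 was highest for every subunit, and tumor 26048 fell near or among the triple-mutant values except for Tcp1.

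Among the Hsp70 and Hsp110 genes, Hspa8, Hspa4 and Hspa9 were higher in both double-mutant tumors, and Hspa2 and Hspa1a in both triple-mutant tumors. Hspa8 (chr9:40801273-40805199), the constitutive Hsc70 and the member with the highest mean level, was at 1267 and 854 FPKM in tumors 26043 and 26044 and at 1313 and 1723 FPKM in tumors 26048 and 26050. Tumor 26043 lay just under tumor 26048, so the genotypes were barely apart (log2 fold change -0.53, SE 0.36; limma, adjusted p = 0.653), and the log2 fold change was -0.25 without tumor 26044 and -0.34 without tumor 26050. Hspa4 (Apg-2), an Hsp110 that exchanges nucleotide on Hsp70, was at 50.6 and 51.3 against 65.0 and 82.1 FPKM (log2 fold change -0.51, SE 0.27). Both double-mutant tumors were higher, and by more than either pair differed within itself. Of the transcript stretches of Hspa8, 39.4% occur in another annotated gene.

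Hspa2, an Hsp70 known for its role in spermatogenesis, was at 8.33 and 9.68 FPKM in the triple-mutant and 4.61 and 3.39 FPKM in the double-mutant tumors. The genotypes did not overlap, at a 2.25-fold ratio of means (log2 fold change 1.01, SE 0.33; limma, adjusted p = 0.480). The heat-inducible Hspa1a was at 6.99 and 5.15 against 2.18 and 4.83 FPKM (0.70, SE 0.43; 0.27 without tumor 26048), so tumors 26044 and 26050 were nearly equal. Its copy Hspa1b, named after its values were seen, was at 51.4 and 12.3 against 15.2 and 17.8 FPKM and was high only in tumor 26043. The pair lie 10.1 kb apart on chromosome 17, and 58.8% of the 50-base stretches of Hspa1a occur in Hspa1b, so the split of reads between them is uncertain. Their sum was 58.3, 17.5, 17.4 and 22.6 FPKM in tumors 26043, 26044, 26048 and 26050, or 4.60%, 2.05%, 1.33% and 1.31% of the level of Hspa8. Of the 12 tested genes of the family, 7 had a positive and 5 a negative log2 fold change (41.7% negative, against 51.6% of all genes). The median was 0.065. Hsph1, also named after its values were seen, was at 55.6 FPKM in tumor 26043 and 16.2 to 35.4 FPKM in the others.

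The Hsp90 genes all had negative values, but only Hsp90ab1 separated the genotypes. This constitutive cytosolic Hsp90 (chr17:45567778-45573261) was at 963 and 868 FPKM in tumors 26043 and 26044 and at 1257 and 1248 FPKM in tumors 26048 and 26050. The tumors of a genotype were close to each other (means 916 ± 67.4 and 1252 ± 6.07 FPKM, SD, n = 2 each; log2 fold change -0.45, SE 0.28; limma, adjusted p = 0.633). Hsp90aa1, the inducible form, was at 163 and 118 against 128 and 377 FPKM, and its log2 fold change of -0.66 turned to 0.11 without tumor 26050. Hsp90b1 (Grp94), the Hsp90 of the endoplasmic reticulum, was at 334 and 222 against 228 and 470 FPKM, and its log2 fold change of -0.27 turned to 0.029 without tumor 26044 and to 0.25 without tumor 26050. Hsp90aa1 was at 17.0%, 13.6%, 10.2% and 30.2% of the level of Hsp90ab1 in tumors 26043, 26044, 26048 and 26050, which sets tumor 26050 apart from the rest. Of the 50-base stretches of Hsp90aa1, 47.5% occur in another annotated gene.

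**Figure D4:**
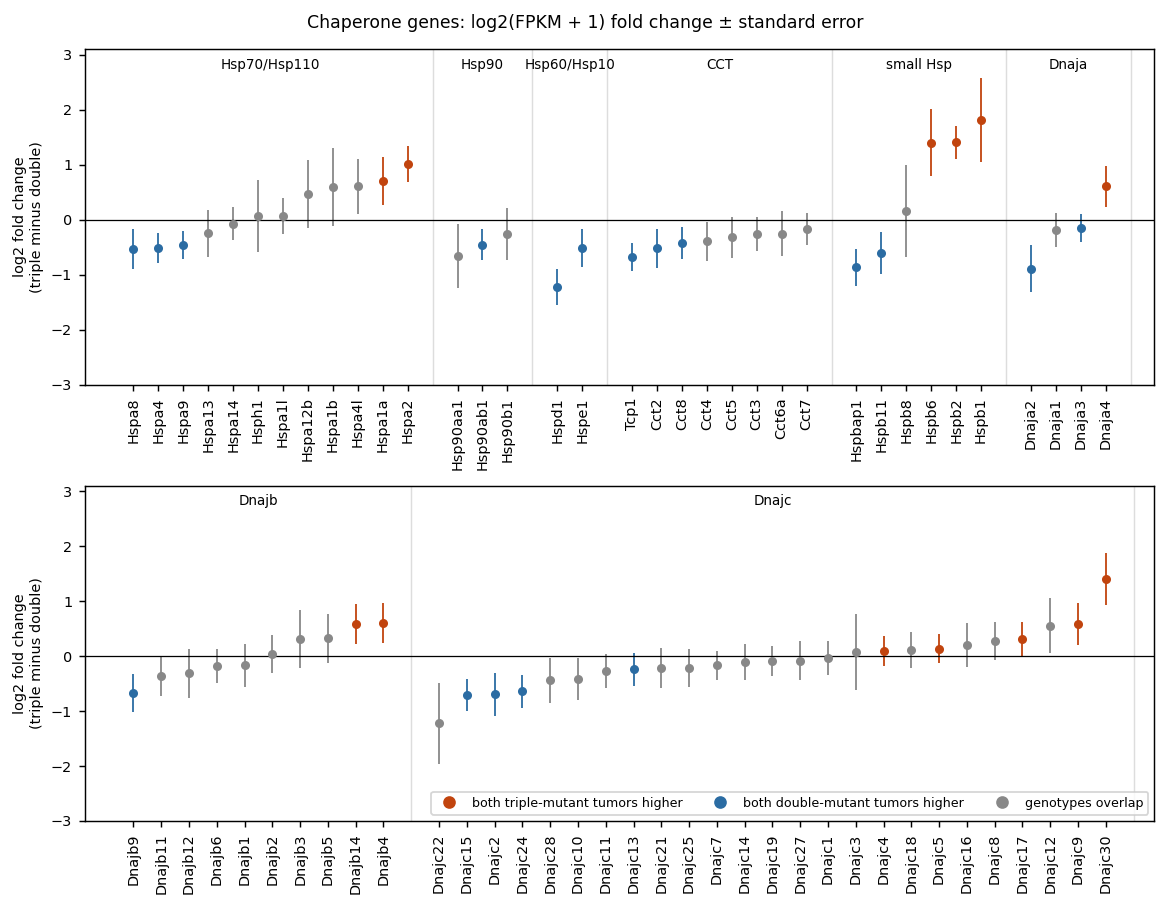
Log2 fold change of FPKM + 1 (y axis, triple-mutant minus double-mutant; bars, limma standard error) of the 70 tested members, grouped by family and ordered within it. Orange points (13) mark members with both triple-mutant tumors higher, blue points (18) those with both double-mutant tumors higher, and grey points (39) those whose genotypes overlapped; all 8 CCT genes and all 3 Hsp90 genes lie below 0.

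The Dnaj proteins choose the clients of Hsp70, and as a group they were split between the directions. Of the 4 Dnaja genes, Dnaja2, a general partner of Hsc70, was at 48.1 and 23.8 FPKM in tumors 26043 and 26044 and at 56.1 and 73.0 FPKM in tumors 26048 and 26050. Both double-mutant tumors were higher, and tumor 26044 was the low value (log2 fold change -0.90, SE 0.43; limma, adjusted p = 0.563; -0.40 without it). Dnaja1, its close relative, was at 47.3 and 32.6 against 45.0 and 44.4 FPKM, and its log2 fold change of -0.18 turned to 0.078 without tumor 26044. Dnaja4 was at 5.38 and 3.06 against 2.07 and 2.65 FPKM (log2 fold change 0.60, SE 0.38), and 42.7% of its 50-base stretches occur in its neighbour Wdr61.

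Of the 10 tested Dnajb genes, 5 had a positive and 5 a negative value, where 51.6% of all genes were negative. Tumor 26043 was highest for 7 (70.0%), against 27.9% of all genes. Dnajb6, known for holding back polyglutamine aggregates and the family member with the highest mean level, was at 66.8 and 56.2 against 58.1 and 83.6 FPKM. Dnajb1 (Hsp40), the heat-inducible partner of Hsp70, was at 40.2 and 22.1 against 37.9 and 29.9 FPKM. Dnajb11, a partner of Hspa5 in the endoplasmic reticulum, was at 55.8 and 37.4 against 48.5 and 72.1 FPKM. In all 3 genes the genotypes overlapped. Dnajb4 was at 6.78 and 4.75 against 4.14 and 2.76 FPKM (log2 fold change 0.61, SE 0.36), and Dnajb14, a Dnaj protein of the endoplasmic reticulum membrane, at 6.87 and 4.81 against 2.83 and 4.24 FPKM (0.59, SE 0.36), both with the triple-mutant pair higher. Dnajb9 (ERdj4), which is induced by stress of the endoplasmic reticulum, was at 6.34 and 4.60 against 10.7 and 7.84 FPKM, with both double-mutant tumors higher (log2 fold change -0.67, SE 0.35; limma, adjusted p = 0.583).

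The Dnajc class holds proteins that share only the J domain. Of its 25 tested genes, 15 had a negative value, 4 were higher in both double-mutant and 5 in both triple-mutant tumors, and 16 overlapped. Dnajc2 (zuotin), which sits on the ribosome, was at 27.6 and 22.2 against 30.3 and 54.8 FPKM (log2 fold change -0.70, SE 0.39). Dnajc24, a factor in the synthesis of diphthamide on elongation factor 2, was at 8.38 and 6.65 against 12.1 and 12.3 FPKM (-0.64, SE 0.30), so its double-mutant tumors were nearly equal. On the other side, Dnajc9, a histone chaperone, was at 40.7 and 37.8 against 18.8 and 35.1 FPKM (0.59, SE 0.39), where tumor 26048 was the low value (0.16 without it). Dnajc17 was at 9.12 and 10.8 against 6.96 and 8.82 FPKM (0.31, SE 0.31). Dnajc7, Dnajc8 and Dnajc19 had the highest mean levels of the class, and their genotypes overlapped. Dnajc7, which binds both Hsp70 and Hsp90, was at 66.3 and 52.8 against 66.1 and 67.2 FPKM, and Dnajc8, a protein linked to splicing, at 51.5 and 85.1 against 58.1 and 51.6 FPKM. Dnajc22, named after its values were seen, had a log2 fold change of -1.22 that rested on 8.71 FPKM in tumor 26050, with 0.655 to 1.82 FPKM in the others.

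Genes that work with these chaperones were described by list. Of the 23 tested Hsp90 co-chaperones (25 listed), 11 were higher in both double-mutant tumors and 2 in both triple-mutant tumors, against 22.9% and 21.3% of all genes, and none passed the test. The median log2 fold change was -0.22. Fkbp5, an immunophilin of steroid receptor complexes, was at 10.8 and 12.0 against 26.2 and 15.7 FPKM (-0.78, SE 0.36), and Unc45a, a myosin chaperone, at 40.2 and 42.8 against 22.5 and 26.0 FPKM (0.75, SE 0.27; limma, adjusted p = 0.500). These were the co-chaperones with the largest values in each direction. The Hsp70 co-chaperone list held 14 genes, among them Hspa5, which is itself an Hsp70 and overlapped between the genotypes. Of the 14, 2 were higher in both double-mutant and 1 in both triple-mutant tumors. St13 (Hip), which stabilizes the client-bound state of Hsp70, was at 109 and 81.9 against 124 and 192 FPKM (-0.70, SE 0.35). Among the 11 prefoldin and CCT cofactors, 4 were higher in both double-mutant and 3 in both triple-mutant tumors. Txndc9, a regulator of CCT, was at 15.0 and 11.2 against 18.5 and 27.3 FPKM (-0.75, SE 0.35), and Pfdn2, a subunit of prefoldin, which hands clients to CCT, at 157 and 120 against 165 and 290 FPKM (-0.67, SE 0.39).

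Sorted by place and regulation, the lists gave the following counts. Over all genes, 22.9% were higher in both double-mutant and 21.3% in both triple-mutant tumors. Of 11 chaperones of the endoplasmic reticulum, 1 was higher in both triple-mutant and 1 in both double-mutant tumors, and 9 overlapped. Tumor 26044 was lowest for 9 of the 11, against 39.0% of all genes. Of the 18 chaperones of the heat-inducible list, all members, 7 were higher in both double-mutant and 3 in both triple-mutant tumors (median -0.25). The list also holds Hspa8 and Hsp90ab1, described above as constitutive, and both are among the 7. Of the 18, 9 were highest in tumor 26043 and 8 in tumor 26050, against 27.9% and 24.7% of all genes. Of the heat shock factor list, 4 of 7 genes were tested. Hsf1, the main heat shock factor, named after its values were seen, was at 40.5 and 33.7 against 36.2 and 33.6 FPKM and did not separate the genotypes (log2 fold change 0.079, SE 0.27; limma, adjusted p = 0.931). Hsf4, a low-level member, was at 1.31 and 1.30 against 1.63 and 1.69 FPKM. Of the 10 tested chaperones outside the symbol rule, 3 were higher in both triple-mutant tumors and none in both double-mutant tumors. Besides Cryab, Sec63, a J protein of the endoplasmic reticulum translocon, stood at 28.0 and 238 against 14.9 and 18.2 FPKM, where tumor 26044 set the value (log2 fold change 2.25, SE 1.04; 0.73 without it).

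The deposited values carry a limit of their own. Each FPKM came with a confidence interval, and for 32 of the 82 members it lay outside its own interval in all 4 tumors, among them Hspb1, Hspb6, Hspd1, Hspe1, Hspa8, Tcp1 and the 3 Hsp90 genes. The FPKM of a member was between 0.487 and 2.85 times the midpoint of its interval. With the midpoints, 12 members in place of 18 were higher in both double-mutant tumors (19.5% of all genes in place of 22.9%). The number higher in both triple-mutant tumors was 13 in either case (23.0% of all genes in place of 21.3%). For 14 members more than 20% of the 50-base stretches occur in another gene.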

How the data were processed

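The authors prepared polyA RNA with dUTP-marked libraries, sequenced 50-base single-end reads, mapped those to mm10 (Tophat, version 2.0.10, which ran bowtie version 0.12.9) and estimated gene-level FPKM (Cufflinks, version 2.1.1). The gene annotation and the strand setting are not given in the sources used here. The deposited FPKM values, with their confidence intervals and status, were used as they stand. Their separate counts (HTSeq) and tests (DESeq2 1.6.2) were not used here. FPKM hold no read counts, so depth is unknown and no counting intervals are given. Total FPKM was 690770 to 796030 per tumor.

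The 4 tables were joined by gene. The 12752 genes that reached 1 FPKM in 2 or more tumors were tested with limma 3.58.1 (R 4.3.3) on log2(FPKM + 1), with an intensity trend, two-sided, and Benjamini-Hochberg adjustment over all genes tested at 0.05. Fold changes on this scale understate those of low genes. Differences within a genotype are on the same scale. The script was tested on simulated data. Named were all Hsp90, Hsp60/Hsp10 and CCT genes, in each other family the 3 with the highest mean and up to 3 in each direction with the largest change and no overlap, up to 2 per list by the same measure, and the 3 targeted genes. Genes beyond this are said to be chosen after their values were seen. The members and the lists were chosen with earlier results of these data known. Shared 50-base stretches were counted over GENCODE M21 transcripts, and promoter windows came from RefSeq (GRCm38.p6). Alternatives were another pseudocount, filter, scaling, variance model, status filter or FPKM estimate, and leaving out each tumor.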

Additional observations from a re-analysis of the deposited data

How the results depend on the processing

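No paired analysis was possible because the genotypes share no tumor number and no label gives the litter of a tumor. Under 12 alternatives no member was called. Of all genes, 6 were called with quantile normalization, 5 by limma without the trend and 1 with interval midpoints, against 0. The median of the small heat shock genes was 0.055 with no filter and 1.40 at a minimum of 5 FPKM, since these settings change which genes enter. Of 55 named genes with a test, 44 never changed sign. Interval midpoints turned Hsp90b1 to 0.013 and Dnaja1 to 0.060. The other sign changes came from leaving out a tumor, where the lone tumor of its genotype is assumed to vary like the pair. Log2 fold changes then lay between -1.44 and 0.11 (Hsp90aa1), -0.78 and 0.25 (Hsp90b1, also 0.029 without tumor 26044), -0.74 and 0.093 (Cct5), -0.73 and 0.22 (Cct6a), -0.34 and 0.013 (Cct7), -0.44 and 0.075 (Dnajb6) and -0.23 and 0.055 (Dnajc19, also 0.0054 without tumor 26043), each positive without tumor 26050. They lay between -0.95 and 1.27 (Hspb8, negative without tumor 26043 and, at -0.29, without tumor 26048), -0.44 and 0.078 (Dnaja1), -0.58 and 0.25 (Dnajb1) and -0.085 and 0.63 (Dnajc8), the last 3 changing sign without tumor 26044. With a tumor left out, 16 to 27 of the 70 members were higher in the triple-mutant tumors, namely 16 without tumor 26043 (33.2% of all genes), 27 without tumor 26044 (40.2%), 18 without tumor 26048 (36.4%) and 18 without tumor 26050 (30.8%), against 13 with all tumors and 10 to 14 under the other settings. In the double-mutant tumors 23 to 39 were higher, namely 39 (45.1%), 26 (31.9%), 35 (34.6%) and 23 (36.3%) in the same order, against 18 with all tumors and 12 to 19 under the other settings. With 3 tumors left, more genes separate by construction. Family medians lay between -0.17 and 0.28 (Hsp70/Hsp110, lowest without 26043), -0.78 and 0.11 (Hsp90), -0.73 and -0.054 (CCT), 0.17 and 1.01 (small heat shock, lowest without 26043), -0.30 and 0.31 (Dnajb, highest without 26044) and -0.20 and -0.0027 (Dnajc). Among named genes that kept their sign, others that moved toward 0 by over 1.5 times included Hspb11 (-0.26), Dnajc2 (-0.28), St13 (-0.39), Txndc9 (-0.49) and Pfdn2 (-0.26) without tumor 26050, Fkbp5 (-0.43) and Dnajb14 (0.37) without tumor 26048, Dnaja4 (0.28) without tumor 26043, Dnajb4 (0.39 and 0.38) without tumor 26043 or 26050, and Dnajc17 (0.15 and 0.20) without tumor 26048 or 26044. The log2 ratios of summed FPKM lay between -1.12 and -0.49 (Hsp60/Hsp10), -0.65 and -0.080 (CCT), 0.40 and 2.28 (small heat shock), -0.71 and -0.14 (Dnaja) and -0.48 and 0.093 (Dnajb). The cause of these shifts was not tested.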
